A study of Mus musculus with 9 samples.

Results

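Toll-like receptors are the membrane receptors by which macrophages sense molecules of microbes, and their 10 genes considered here are Tlr1 to Tlr9 and Tlr13. The genes were fixed by name, and the measurement is the open chromatin called by ATAC-seq within each gene and the 10 kb flanking it on either side. They are 10 of 21631 protein-coding genes of the RefSeq annotation of GRCm38, and their windows hold 25 of the 36843 regions called in any of 3 peak lists. A region is a set of peaks that overlap by at least 1 bp, and a list calls a region when one of its peaks lies in it.

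The study sorted peritoneal macrophages of mice, as 9 samples in 3 groups of 3, and cut open DNA with the transposase Tn5. Monocyte-derived macrophages came from mice that received 2 ml of thioglycollate, an irritant that recruits monocytes to the peritoneum, and were taken at day 4. Converted macrophages came from mice that received 2 ml of thioglycollate and a tamoxifen diet for 8 weeks. For resident macrophages the labels name no treatment of their own. All mice, resident ones included, carried Cx3cr1CreERT2-IRES-EYFP/+ and Rosa26-stopfl-tdTomato/+, so that cells that use the Cx3cr1 promoter can be marked when tamoxifen is given. All of them were also injected on alternate days, beginning 4 days ahead of harvest, with complexes of 5 µg of IL-4 and 25 µg of anti-IL-4. Ages, the sort gates and the number of mice pooled per sample were not stated in the labels. Origin, treatment and time since thioglycollate change together between the groups and cannot be told apart.

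Each group has 1 merged list of peaks, so a value below has no spread between replicates and no test between groups was possible. The lists hold 33694 monocyte-derived, 15552 converted and 24348 resident peaks, and sequencing depth is unknown. Absence of a call does not separate a closed site from one below detection, and fewer cells with an open site cannot be told apart from a less open site in each cell. Each peak has the authors' p-value from their peak caller (below, its caller value), with a lowest value, or floor, of 1e-12. It was used to rank or filter the peaks of a list, and where values of several lists are given for a region they are a description, since whether the lists share a scale is unknown. Over all protein-coding genes, 60.2% had a region in the monocyte-derived, 43.2% in the converted and 54.0% in the resident list. Among 8 macrophage marker genes, all 8 had a region in the monocyte-derived and resident lists, and 3 (Csf1r, Cd68 and Lyz2) in the converted list. The converted count of 3 of 8 is near the share over all genes. Adgre1, which encodes a surface antigen of mature mouse macrophages, had 1 monocyte-derived, 0 converted and 4 resident regions. It was the only 1 of the 8 with more resident than monocyte-derived regions, against 7.59% of all genes. Fewer resident regions were found for 6 of the 8, against 35.0% of all genes. The B cell genes Ms4a1 and Pax5 had no region in any list, while of 4 dendritic cell genes 4 had a region in the monocyte-derived, 1 in the converted and 2 in the resident list. In the same order, a region was called for 2, 1 and 1 of 4 B cell genes, 2, 0 and 0 of 5 T cell genes, 1, 1 and 2 of 5 neutrophil genes, 1, 0 and 1 of 4 mast cell genes and 1, 1 and 1 of 3 eosinophil genes. The part of other cell types in the counts below was not tested.

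Toll-like receptors recognise their ligands with leucine-rich repeats and signal through a TIR domain in the cytoplasm. TLR1, TLR2, TLR4, TLR5 and TLR6 sit mainly on the cell surface and bind lipoproteins, lipopolysaccharide and flagellin. TLR3, TLR7, TLR8, TLR9 and TLR13 sit in endosomes and bind nucleic acids. All but TLR3 signal through the adaptor MYD88, TLR3 uses TRIF, and TLR4 uses both. In macrophages the receptors lead to inflammatory cytokines and interferons, whereas IL-4, given to all mice here, drives alternative activation.

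RefSeq promoter windows, from 250 bases before to 50 after a start site, were matched for 8 of the 10 genes, all but Tlr4 and Tlr7, with 10 windows since Tlr1 and Tlr6 have 2 each. Peaks overlapped the windows of Tlr3 and Tlr9, which are shown because they are the only ones of the 10 that a peak overlapped. Tlr4 and Tlr7 are missing from these counts for want of a window. A Tlr4 region across one gene end, described below, was called in all 3 lists. Of the 10 windows, 2 were overlapped in the monocyte-derived list, 0 in the converted list and 1 in the resident list. Over the 21045 windows of all protein-coding genes the shares were 39.5%, 26.0% and 32.6%. Both sequences are from GRCm38.p6, read 5′ to 3′ from 250 bases before the start site to 20 bases after it, with the bases inside the called region in capitals. The Tlr3 window lies on the minus strand with its start site at chr8:45410380-45410380, and the Tlr9 window on the plus strand with its start site at chr9:106222598-106222598.
Tlr3: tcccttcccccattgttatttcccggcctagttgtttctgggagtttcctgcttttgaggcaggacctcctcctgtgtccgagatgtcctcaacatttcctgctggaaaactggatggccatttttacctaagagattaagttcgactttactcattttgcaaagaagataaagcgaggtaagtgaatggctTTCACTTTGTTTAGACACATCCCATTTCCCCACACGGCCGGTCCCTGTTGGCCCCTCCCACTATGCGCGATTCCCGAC
Tlr9: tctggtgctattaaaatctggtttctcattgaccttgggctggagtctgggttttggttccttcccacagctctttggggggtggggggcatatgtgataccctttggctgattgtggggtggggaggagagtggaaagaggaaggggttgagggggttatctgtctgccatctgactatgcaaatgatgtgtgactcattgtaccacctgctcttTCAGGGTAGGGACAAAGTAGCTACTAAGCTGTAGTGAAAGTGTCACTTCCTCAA

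The sequences differ in their CpG dinucleotides, of which the Tlr3 stretch has 9 and the Tlr9 stretch 0. In the part of each that lies inside the region, G and C make up 57.7% of bases at Tlr3 and 44.4% at Tlr9. Letters of 6 motifs were searched on both strands in all windows. The PU.1 letters GAGGAAGT match at Tlr9 from base 11 to base 18, counting the start site as base 1, on the opposite strand (ACTTCCTC) and inside the region. They are in 2 of the 10 receptor windows (Tlr1 and Tlr9) and in 3.15% of all windows. The AP-1 letters TGANTCA match at Tlr9 as TGACTCA, 58 to 52 bases before the start and outside the region, and are in 1 receptor window and 7.04% of all. NF-κB letters, GGANTTTCC, match at Tlr3 as GGAGTTTCC, 210 to 202 bases before the start and outside the region, and are in 1 receptor window and 1.29% of all. The interferon response letters GAAANNGAA were found in the windows of Tlr6 and Tlr8 and in 8.10% of all, and neither of these windows was overlapped by a peak. RUNX letters, TGTGGTTT, and GATA letters, GATAAG, were in 0 receptor windows and in 1.62% and 6.95% of all. A match describes the letters and is not evidence of binding.

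Nearly every receptor gene had open chromatin called in monocyte-derived cells, most had some in resident cells, and few had any in converted cells. A region was called for 9 of 10 genes in the monocyte-derived list, where 60.2% of all protein-coding genes had one. The resident list had a region for 7 of 10, against 54.0% of all genes. The converted list had a region for 2 of 10, Tlr2 and Tlr4, against 43.2% of all genes. The same 2 genes alone had a region in all 3 lists, which 40.9% of all genes did. Tlr1, the partner of TLR2 for triacylated lipopeptides, had no region in any list.

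**Figure D1:**
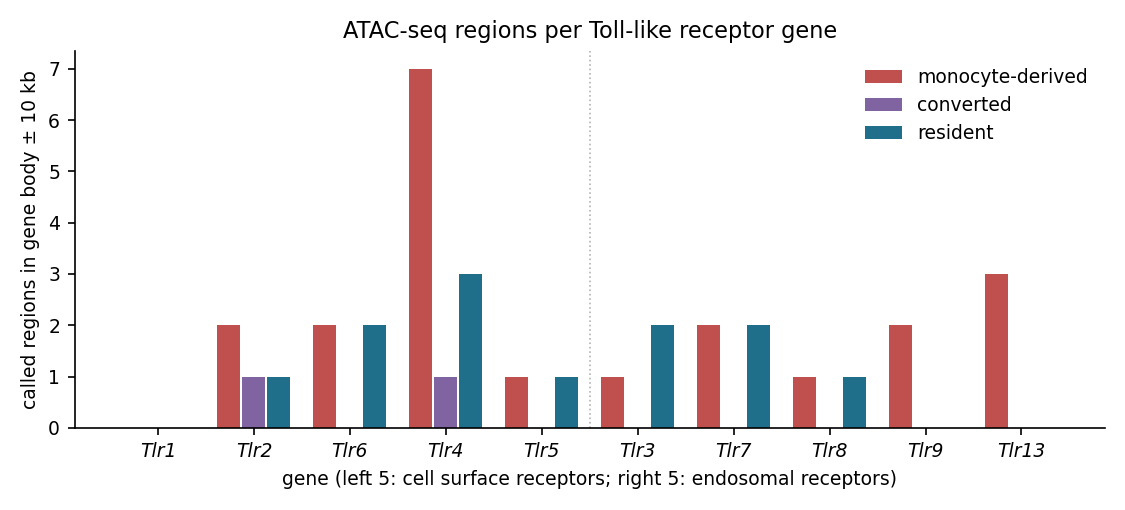
Bars give the number of called regions (y axis) in the 10 kb window of each receptor gene (x axis) in the monocyte-derived, converted and resident lists. Tlr4 stands highest with 7, 1 and 3 regions, Tlr1 has none, and converted bars appear only at Tlr2 and Tlr4.

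Counting distinct regions, the 10 windows held 21 monocyte-derived, 2 converted and 12 resident regions. The mean per receptor gene was 2.1 monocyte-derived, 0.2 converted and 1.2 resident regions, and over all genes it was 1.68, 0.73 and 1.11. The medians were 2, 0 and 1 for the receptors and 1, 0 and 1 for all genes. Among the 9240 genes of 4279 to 27195 bp, the range of the receptors, 62.8% had a monocyte-derived, 43.5% a converted and 55.0% a resident region.

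The converted list is the shortest, so each list was also reduced to its 15552 peaks of smallest p-value. At equal lengths a region was called for 5 receptor genes in the monocyte-derived list (45.9% of all genes), 2 in the converted list (43.2%) and 6 in the resident list (45.0%). The regions numbered 10, 2 and 9. The excess of monocyte-derived over resident regions at full length, 21 against 12, was 10 against 9 at equal lengths.

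**Figure D2:**
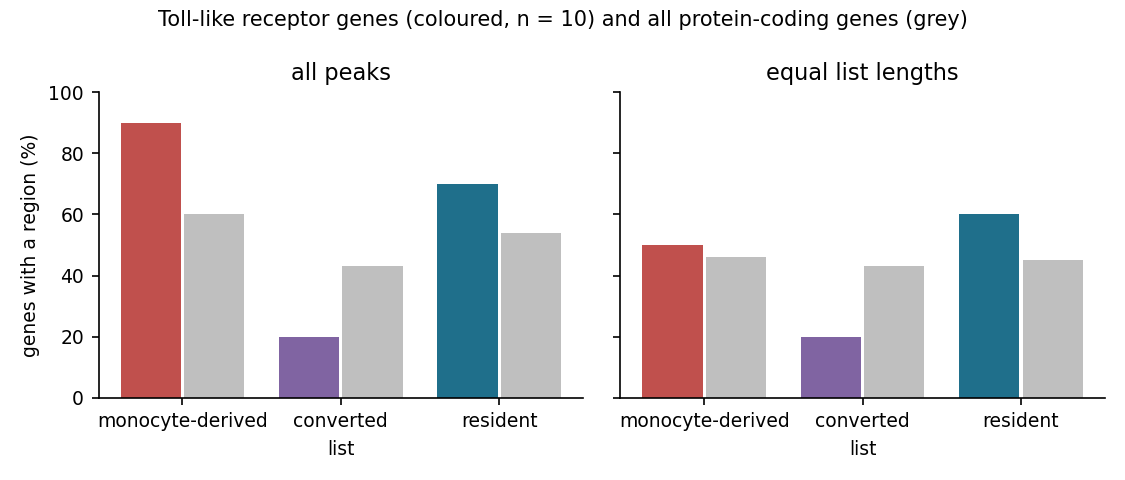
Coloured bars give the percentage of the 10 receptor genes with a region in each list (x axis), grey bars that of all protein-coding genes, with all peaks on the left and equal list lengths on the right. The converted bar is below its grey bar in both panels, at 2 of 10 genes against 43.2%.

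Gene by gene, 4 receptors (Tlr2, Tlr4, Tlr9 and Tlr13) had fewer resident than monocyte-derived regions, against 35.0% of all genes, a share near the background. Tlr3 alone had more, against 7.59% of all genes. In converted cells 9 receptors had fewer regions than in monocyte-derived cells and 0 had more, against 45.3% and 1.81% of all genes, with the monocyte-derived list the longer one. At equal lengths 5 had fewer, against 19.2% of all genes, and 0 had more. Set beside resident cells, converted cells had fewer regions for 6 receptors and more for 0, against 29.2% and 4.44% of all genes. Here too the converted list is the shorter one. At equal lengths 5 had fewer converted than resident regions and 0 had more, and the share over all genes was not counted. The comparisons share lists, so they are not independent of each other.

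Tlr4 encodes the receptor for lipopolysaccharide and held the most regions, with 7 monocyte-derived, 1 converted and 3 resident. As many monocyte-derived regions were found for 3.37% of all genes. Its region across one gene end (chr4:66827389-66827788; gene chr4:66827551-66846581) was called in all 3 lists, each time at the p-value floor of 1e-12. The called bases there were 400 in the monocyte-derived, 375 in the converted and 325 in the resident list. This was the only receptor region at the floor in the converted and resident lists. The monocyte-derived list had 5 at the floor, this one among them, which their p-values cannot rank. Floor values were common in the full lists too. They made up 18.5% of all monocyte-derived peaks, 19.9% of the converted list and 12.9% of all resident peaks. With 21, 2 and 12 receptor regions in these lists, the counts at the floor do not set the receptors apart.

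The 6 other Tlr4 regions were all in the monocyte-derived list, and none was in the converted list. Inside the gene, chr4:66843314-66843538 had a caller value of 1e-12 in monocyte-derived and 6.37e-06 in resident cells. Nearer the shared end, chr4:66828714-66828938 was weak in both, with 6.73e-06 and 1.20e-05. Only monocyte-derived cells had a call at chr4:66828039-66828113 inside the gene and at chr4:66822564-66822688, 4.86 kb outside it. Both outermost regions, chr4:66821814-66822013 at 5.54 kb and chr4:66852014-66852363 at 5.43 kb beyond the other end, were monocyte-derived only and at the floor. No other protein-coding gene has an end nearer to any of the 7 regions. At equal lengths Tlr4 had 4, 1 and 2 regions.

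Tlr2 encodes the receptor that pairs with TLR1 or TLR6 to bind bacterial lipoproteins, and it had 2 monocyte-derived, 1 converted and 1 resident region. The shared one, chr3:83845189-83845438, lies 3.71 kb upstream of the start site, outside the gene (chr3:83836272-83841824). Its smallest p-values were 1.03e-10 in the monocyte-derived, 5.61e-06 in the converted and 3.39e-06 in the resident list. Within its own list that placed it among the first 19.0%, 77.2% and 30.4% of peaks. Called bases numbered 250, 75 and 175. The second, chr3:83839564-83839713 inside the gene, was monocyte-derived only, with a caller value of 7.44e-09. At equal lengths Tlr2 again had 2, 1 and 1 regions.

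**Figure D3:**
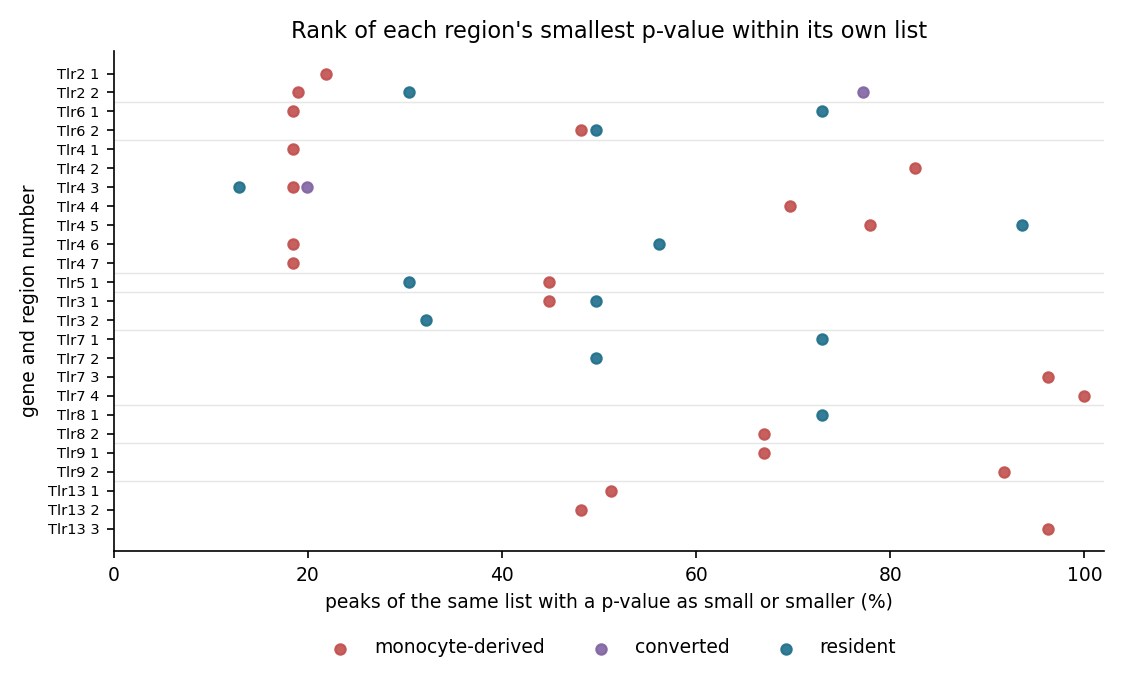
Each point is the smallest p-value of a receptor region (y axis, numbered by coordinate within each gene), placed by the percentage of peaks in the same list with a p-value as small or smaller (x axis). Points at 18.5% (monocyte-derived), 19.9% (converted) and 12.9% (resident) are at the floor of 1e-12, as at the third region of Tlr4 in all 3 lists.

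Tlr6 encodes the partner of TLR2 for diacylated lipopeptides and had 2 monocyte-derived, 0 converted and 2 resident regions. The region chr5:64960814-64961413 lies inside the annotated gene (chr5:64953092-64970942) and 1.07 kb upstream of the nearest of its 2 start sites in the promoter table. In monocyte-derived cells 2 peaks covered 600 bases, the wider of 550 bp at the floor and the other of 75 bp at 7.89e-06, and in resident cells had a caller value of 8.27e-06 over 125 bases. The other, chr5:64969964-64970088, also lies in the gene but overlaps the promoter window of the neighbour Fam114a1, whose end is 0.049 kb away. It therefore cannot be assigned to Tlr6 from position alone. Tlr1, at chr5:64924680-64933600 beside Tlr6, held no call, and neither did its 2 promoter windows.

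Tlr5 encodes the flagellin receptor and had 1 region, chr1:182983014-182983263, in the monocyte-derived and resident lists. It lies 6.97 kb outside the gene (chr1:182954752-182976044), on the side away from the start site. Both lists called 175 bases there, with caller values of 3.00e-06 in the monocyte-derived and 3.39e-06 in the resident list. Among the 8 receptor regions called in both of these lists it was the only one of equal width, and the other 7 were wider in monocyte-derived cells. Over all 15645 regions called in both lists, 72.0% were wider in the monocyte-derived and 14.6% in the resident list.

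The nucleic acid receptors had 9 monocyte-derived, 0 converted and 5 resident regions. Tlr3, the receptor gene for double-stranded RNA, had 1 monocyte-derived and 2 resident regions. Its region chr8:45410314-45410438 covers the start site printed above, with caller values of 3.00e-06 in the monocyte-derived and 5.63e-06 in the resident list. The second, chr8:45415039-45415213, is 4.75 kb upstream of the start and was resident only, with a caller value of 3.93e-06. These counts were the same at equal lengths, and Tlr3 (chr8:45395665-45411075) was the only receptor gene with more resident than monocyte-derived regions at full length.

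Tlr7 and Tlr8, neighbours on the X chromosome that encode receptors for single-stranded RNA, were called in 2 lists at different places. Tlr7 (chrX:167303380-167330574) had 2 monocyte-derived regions, chrX:167328714-167328838 and chrX:167329664-167329788, and 2 resident regions, chrX:167315939-167316038 and chrX:167318864-167318988. All 4 lie inside the gene, and none is shared. The monocyte-derived calls were among the weakest of their list, with caller values of 8.60e-06 and 1.01e-05, and the resident ones had 8.27e-06 and 5.63e-06. At equal lengths the resident regions stayed at 2 and the monocyte-derived count was 0.

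Tlr8 (chrX:167241123-167264329) had a monocyte-derived region inside the gene, chrX:167262564-167262638, 1.73 kb downstream of its start site. The resident region, chrX:167231289-167231363, lies 9.76 kb outside at the far end. Each is 75 bp wide, and their p-values were 4.13e-06 and 8.27e-06. Just beyond the 10 kb limit, 11.7 kb from the Tlr8 end, chrX:167229314-167229563 was called in all 3 lists. Neither region within the limit was called at equal lengths.

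Tlr9 and Tlr13 had calls in the monocyte-derived list alone. Tlr9, the receptor gene for unmethylated CpG DNA (chr9:106222598-106226876), had a 75 bp region over its start site, chr9:106222564-106222638, with a caller value of 4.13e-06. Its other region, chr9:106230089-106230263 (caller value 8.42e-06), is 3.21 kb outside the gene and nearer to an end of Alas1 (3.28 kb from the centre) than to Tlr9 (3.30 kb). Tlr13, a receptor gene for bacterial ribosomal RNA (chrX:106143275-106160493), had 3 regions, all outside the gene. Those at chrX:106136039-106136163 and chrX:106136339-106136438 lie 7.17 and 6.89 kb upstream of the start, with caller values of 3.36e-06 and 3.02e-06. The third, chrX:106164089-106164163, lies 3.60 kb beyond the other end, with a caller value of 8.60e-06. At equal lengths both genes had 0 regions in every list.

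**Figure D4:**
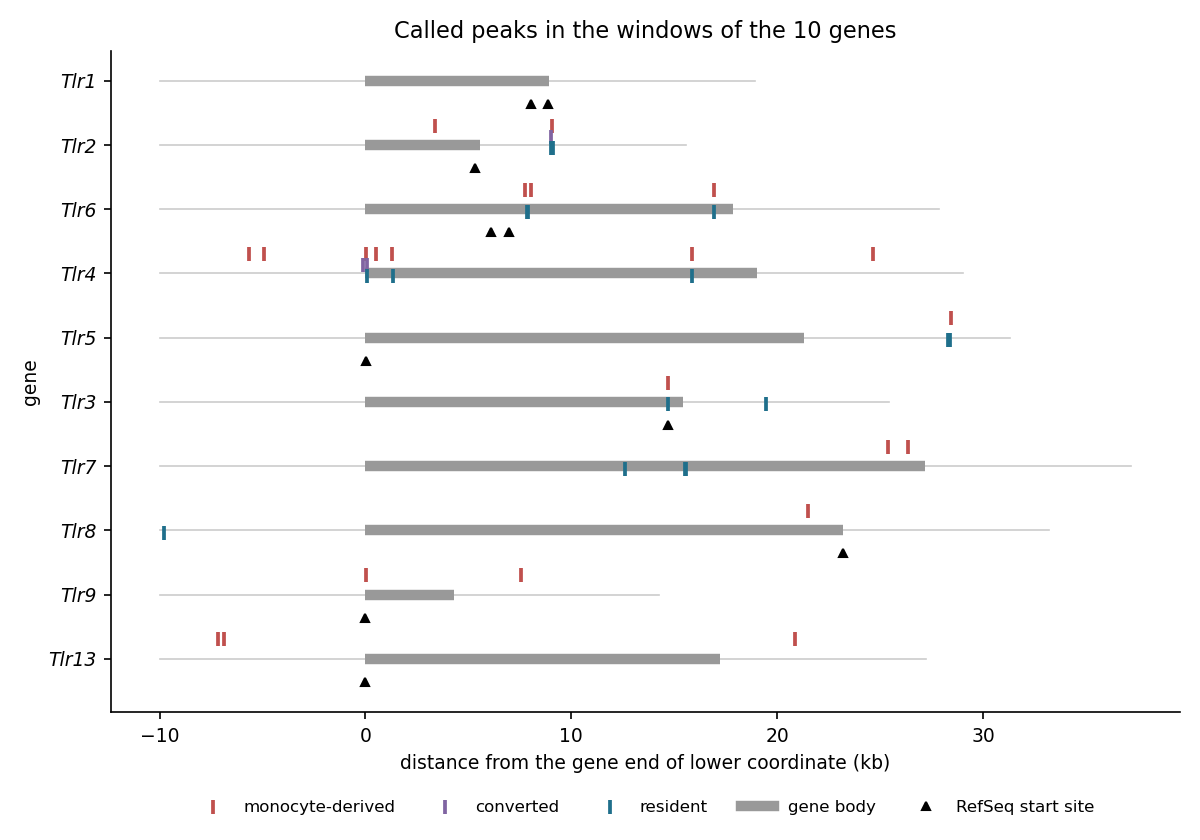
Ticks mark the centres of called peaks in each receptor gene's window (y axis), by list, at their distance in kb from the gene end of lower coordinate (x axis), with the gene body in grey and RefSeq start sites as triangles where the promoter table has them. Resident ticks sit under monocyte-derived ones at Tlr2, Tlr4, Tlr5 and Tlr6, whereas at Tlr7 and Tlr8 the 2 lists mark different places.

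Overlap between the monocyte-derived and resident lists was counted for surface and endosomal receptors apart. Among the surface receptors all 7 resident regions were also monocyte-derived, and these were 58.3% of the 12 monocyte-derived regions. Among the endosomal receptors 1 of 5 resident regions, the Tlr3 start, was shared, or 11.1% of the 9 monocyte-derived regions. Over the genome 76.7% of resident and 49.6% of monocyte-derived regions were shared. At equal lengths 5 of 5 surface and 1 of 4 endosomal resident regions were shared, against 53.2% over the genome. Taken as a share of monocyte-derived regions, however, the endosomal value turned from 1 of 9 to 1 of 1, against 55.6% of 9 surface regions, because a single endosomal region was left in the monocyte-derived list. This grouping follows the known place of each receptor, was made with the values known, and was not tested.

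By list, 13 of the 25 receptor regions (52.0%) were monocyte-derived only, against 39.5% of all regions. Another 6 (24.0%, against 14.4%) were in the monocyte-derived and resident lists, 4 (16.0%, against 11.0%) were resident only, and 2 (8.00%, against 28.1%) were in all 3. No receptor region was called in the converted list alone or in it and just 1 other list. Over all regions those classes held 1.55% (converted alone), 1.94% (with resident) and 3.56% (with monocyte-derived). Among 25 regions a count of 0 is near these small shares. All regions, 63.6% of which lay over 1 kb from any protein-coding gene end, include those outside gene windows. Of the 25 receptor regions, which lie in gene windows by choice, 19 (76.0%) lay that far. Of these 19 the converted list called 1, or 5.26%, against 26.4% over the genome. Of the 6 near a gene end it called 1, or 16.7%, against 50.4%. At both distances the converted share was lower at the receptors than over the genome, but it rests on 1 region each. These shares are at full list lengths, where the converted list is the shortest, and the part of distance was not tested.

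Genes that act with the receptors were counted in the same way. Of 39 genes of the pathway, 36 had a region in the monocyte-derived, 30 in the converted and 33 in the resident list, against 60.2%, 43.2% and 54.0% of all genes. At equal lengths the counts were 29, 30 and 25, against 45.9%, 43.2% and 45.0%. Fewer regions than in the monocyte-derived list were found for 25 of them in resident and 27 in converted cells, against 35.0% and 45.3% of all genes, and more for 3 and 0. Beside resident cells, converted cells had fewer for 14, against 29.2% of all genes, and more for 3. At equal lengths 10 pathway genes had fewer and 9 had more converted than monocyte-derived regions. Some pathway genes, such as Cd36, Pik3ap1 and Traf3, are longer than the 27195 bp of the longest receptor gene. Their windows are therefore wider, and no background of like gene length was counted for them. No test of the difference between receptors and pathway genes could be made with 1 list per group.

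Co-receptors, chaperones and the 2 remaining receptor genes had a region for 9 of 11 genes in the monocyte-derived, 7 in the converted and 10 in the resident list. Cd36, a scavenger receptor gene whose product assists TLR2, had 7, 2 and 3 regions, in the order monocyte-derived, converted and resident. Cnpy3, which encodes a chaperone of several receptors, had 5, 1 and 2. Cd14, the lipopolysaccharide co-receptor gene, had 3, 2 and 2.

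Adaptor genes were covered alike, at 4 of 5 in every list. Myd88 had 3, 3 and 2 regions, with 1 at its end, chr9:119339964-119340113, in all lists. Another, chr9:119340914-119341438, was at the floor of 1e-12 in all lists but nearer to an end of Acaa1a. Ticam1, which encodes TRIF, had 5, 1 and 2, and Ticam2, which encodes the TLR4 bridging adaptor TRAM, had 3, 1 and 1. The Ticam1 regions chr17:56265139-56265313, chr17:56265914-56266213 and chr17:56266314-56266563 were nearer to an end of Fem1a. Regions nearer to a neighbour cannot be assigned to the adaptor gene from position alone. Sarm1 had none.

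Kinases, ligases and interferon regulatory factors had a region for 15 of 15 genes in the monocyte-derived, 12 in the converted and 11 in the resident list. Traf3, a ubiquitin ligase gene of the interferon branch, had 6, 2 and 1 regions. Chuk, the gene of the kinase IKKα, had 3, 0 and 0, and Irak4, the first kinase after MYD88, had 6, 3 and 4.

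The list of inhibitors had a region for 8 of 8, 7 and 8 genes, and all 8 had fewer converted than monocyte-derived regions at full length, against 45.3% of all genes. At equal lengths 4 had fewer and 2 had more. Irak3, the gene of the inhibitory kinase IRAK-M, had 8, 3 and 3 regions. Irak2, which sits in this list although its product mainly carries the signal, had 7, 2 and 2, and Pik3ap1 had 6, 3 and 3.

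**Figure D5:**
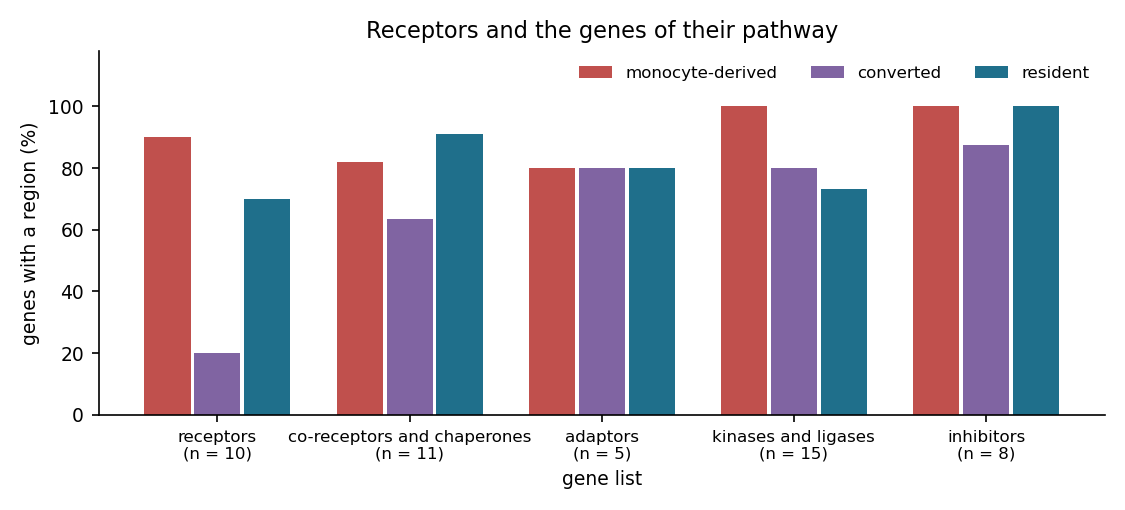
Bars give the percentage of genes with a region (y axis) in each list for the 10 receptor genes and 4 lists of genes of their pathway (x axis, with the number of genes). The converted bar is 2 of 10 for the receptors and 7 of 11, 4 of 5, 12 of 15 and 7 of 8 for the others. The 11 include the receptor genes Tlr11 and Tlr12, each with 1 region in every list. Windows are wider for longer genes, and the lists differ in gene length.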

How the data were processed

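ATAC-seq of 9 samples was given as 1 merged peak list per group. The submitters' processing notes name Bowtie2 2.2.9 and the mouse build mm10 (GRCm38). The labels state neither the peak caller nor how Tn5 shift, duplicates and merging were handled, any of which can alter what is listed. The only measurement is the p-value of each peak as the authors deposited it, with no counts, heights or depth. The lists' names carry a p-value of 1e-05, but 1267 monocyte-derived and 5476 resident peaks exceed it.

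Here, peaks overlapping by at least 1 bp were merged, and regions were counted per gene with 10 kb flanks. Counts of receptor genes at full list length, and some at equal lengths, were set beside all 21631 protein-coding genes of RefSeq GRCm38.p6. Counts with other windows, p-value limits or merging were made for the receptor genes alone. The annotation gives no exons, so exonic or intronic place is not stated. Named pathway genes are the 3 of each list with the largest resident minus monocyte-derived net regardless of sign, ties by symbol. The markers and other list members named are noted for a count or a place. Members, lists and motifs were chosen with earlier results of these data known. One gene of the marker lists is not reported here. No test between groups was run. Counting was tested on simulated data, where planted counts were recovered for 200 of 200 genes. The work used pandas 2.3.3 and numpy 2.4.6 under Python 3.11.15, with figures by matplotlib 3.10.9.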

Additional observations from a re-analysis of the deposited data

How the results depend on the processing

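Merging peaks within 200 bp, assigning regions to the nearest gene end and requiring p at most 1e-5 kept the counts of regions, of genes with a region and of genes with fewer regions within 1.5 times. With p at most 1e-5, 2 genes (Tlr3 and Tlr7) in place of 1 had more resident than monocyte-derived regions. At equal list lengths monocyte-derived regions numbered 10, with 5 genes, and 5 genes had fewer converted than monocyte-derived regions. With p at most 1e-10 there were 5 monocyte-derived, 1 converted and 1 resident region in 2, 1 and 1 genes, and 2 genes had fewer resident and 2 fewer converted than monocyte-derived regions, with 0 fewer converted than resident. With 1 kb on each side there were 12 monocyte-derived regions and 1 converted region, in 1 gene, and 4 genes had a resident region. With 50 kb the regions numbered 41, 12 and 23, 6 genes had a converted region, and 7 had fewer resident than monocyte-derived regions. Except at equal list lengths, no share over all genes was counted in these settings. Whether the receptors differ from other genes in them is therefore unknown. In no setting did a receptor gene have more converted than monocyte-derived regions, and with 50 kb 2 had more converted than resident ones. No paired analysis was possible because the 3 samples of a group share 1 merged list that does not separate the replicates. For the same reason replicates could not be left out. Depth is unknown and limits every absence of a call.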

Other observations

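The 2 receptor genes outside the 10 described, Tlr11 and Tlr12, each had 1 region in all 3 lists. At Tlr11, which encodes a receptor for the parasite protein profilin, it lay next to the gene end (chr14:50357639-50357888), and the authors' p-values were 6.73e-06 in the monocyte-derived, 2.24e-08 in the converted and 1.18e-05 in the resident list. The Tlr12 region, chr4:128609964-128610338, was at the floor of 1e-12 in all lists but lay 0.002 kb from an end of the neighbouring gene Zscan20.

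With windows of 50 kb, 12 converted regions were found around the 10 receptor genes. Of these, 6 were nearest to an end of the receptor gene and 4 lay within 1 kb of an end of another gene (Ppm1m, Twf2 and Pgk1). Around Tlr2 the converted regions included chr3:83863014-83863288, called in all 3 lists 21.3 kb from the gene, and chr3:83865414-83865513, called in the converted list alone. These were singled out after their values were seen.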
